A study of Homo sapiens with 6 samples.

Results

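Integrins are receptors of the cell surface that bind the extracellular matrix, and the genes described here are the integrin subunits together with the matrix glycoproteins that integrins bind. The members were taken by gene symbol as all integrin alpha and beta subunits, all laminin chains, fibronectin (FN1), tenascin C (TNC), thrombospondins, nidogens, perlecan (HSPG2), vitronectin (VTN) and osteopontin (SPP1). This gave 51 of the 22604 genes in the table, of which 49 were the named genes (18 alpha subunits, 8 beta subunits, 12 laminin chains and 11 other glycoproteins) and 2 were antisense transcripts, ITGA9-AS1 and ITGB2-AS1, that the symbol prefix caught. RNA-seq was done on SKNMC, a human Ewing sarcoma cell line, after lentiviral delivery of 1 of 3 constructs and puromycin selection. NFIB WT cells received V5-tagged wild-type NFIB, NFIB ΔIDR cells received V5-tagged NFIB without the intrinsically disordered region (IDR) near its C-terminus, and EV cells received the empty vector. NFIB is a transcription factor of the nuclear factor I family, and each group had 2 libraries, from experiments described as biological duplicates of a single cell line.

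An integrin is a pair of 1 alpha and 1 beta subunit, and the pair decides which matrix protein is bound. Fibronectin is bound mainly through ITGA5 with ITGB1 and through ITGAV with several beta subunits, and laminins, the trimers of an alpha, a beta and a gamma chain that build basement membranes, through pairs such as ITGA6 with ITGB1. Bound integrins gather talin, kindlin and kinases at focal adhesions, which tie the matrix to the actin cytoskeleton.

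The libraries held 6664231 to 8465572 counts, so that 1 CPM (a library's counts brought to a common total, scaled by TMM factors) corresponded to 6.67 to 8.37 counts. NFIB itself had 969 and 1051 CPM in NFIB WT cells and 2227 and 2332 CPM in NFIB ΔIDR cells, against 176 and 145 CPM in EV cells. The NFIB transcript was thus lower in NFIB WT than in NFIB ΔIDR cells (log2 fold change -1.17 ± 0.10 (SE), adjusted p = 0.000191), so that in the direct comparison below the missing IDR and the amount of NFIB RNA cannot be told apart. The NFIB WT libraries differed more from each other than the other pairs did, with an SD of the log2 difference over genes of 0.35, against 0.26 in both other pairs. Of the Ewing sarcoma markers, 9 of 9 in the table passed the filter on low counts. Of the 6 epithelial markers in the table, KRT18 (175 to 321 CPM), KRT8 (3.0 to 11.4 CPM), EPCAM (5.46 to 8.48 CPM) and ESRP1 (2.75 to 10.01 CPM) were detected in every library, while CDH1 and KRT14 were at 0 to 0.44 CPM. Of the 7 leukocyte markers, PTPRC had 251 to 312 CPM, CD79A and CD68 had 2.87 to 5.90 CPM, and CSF1R, CD3E, CD14 and TYROBP were at 0 to 0.84 CPM.

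Of the 51 members, 32 passed the filter on low counts and were tested, namely 9 alpha subunits, 5 beta subunits, 9 laminin chains, 8 other glycoproteins and ITGB2-AS1. The 18 genes that did not pass had 1 to 46 counts summed over the 6 libraries. Among them were ITGAD, ITGAM, ITGA3, ITGA11, ITGA10, ITGA9, ITGAL, ITGAX, ITGA8, ITGB2, ITGB4, ITGB6, LAMC3, LAMB4, THBS2, VTN and SPP1. Several of these are subunits of leukocyte integrins (ITGAD, ITGAM, ITGAL, ITGAX and ITGB2) or parts of epithelial adhesions (ITGB4 and ITGB6). A gene can pass this filter through 1 high group, so counts and medians over the tested members are descriptions only.

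Per kb of gene length, ITGB1, ITGAV, LAMB1 and FN1 led their classes. Among beta subunits, ITGB1, the common partner of most alpha subunits, had 53.0, 50.1 and 53.3 CPM per kb in NFIB WT, NFIB ΔIDR and EV cells. ITGB5, a partner of ITGAV, followed at 28.2, 20.4 and 21.6 CPM per kb, while ITGB8 (0.97, 0.43 and 1.01), ITGB7 (0.48, 0.36 and 0.47) and ITGB3 (0.20, 0.39 and 0.19) were far lower. Among alpha subunits the order in every group was ITGAV, ITGA5 and ITGAE, and ITGAV alone made 49.2%, 46.4% and 48.2% of the summed alpha level per kb. Among laminins, LAMB1 (52.8, 71.6 and 65.8 CPM per kb) and LAMC1 (19.9, 21.8 and 20.9) stood far above the alpha chains, whose 5 levels summed to 1.86 ± 0.16, 2.04 ± 0.28 and 1.68 ± 0.03 CPM per kb (SD, n = 2 each). FN1 (48.0, 65.5 and 39.9 CPM per kb) was below ITGB1 in NFIB WT and EV cells and above it in NFIB ΔIDR cells. TNC (4.33, 1.90 and 2.20) was far lower. In NFIB WT cells the libraries of ITGB1 and LAMB1 overlapped in level per kb, so those neighbours in the order did not differ beyond their spread.

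**Figure D1:**
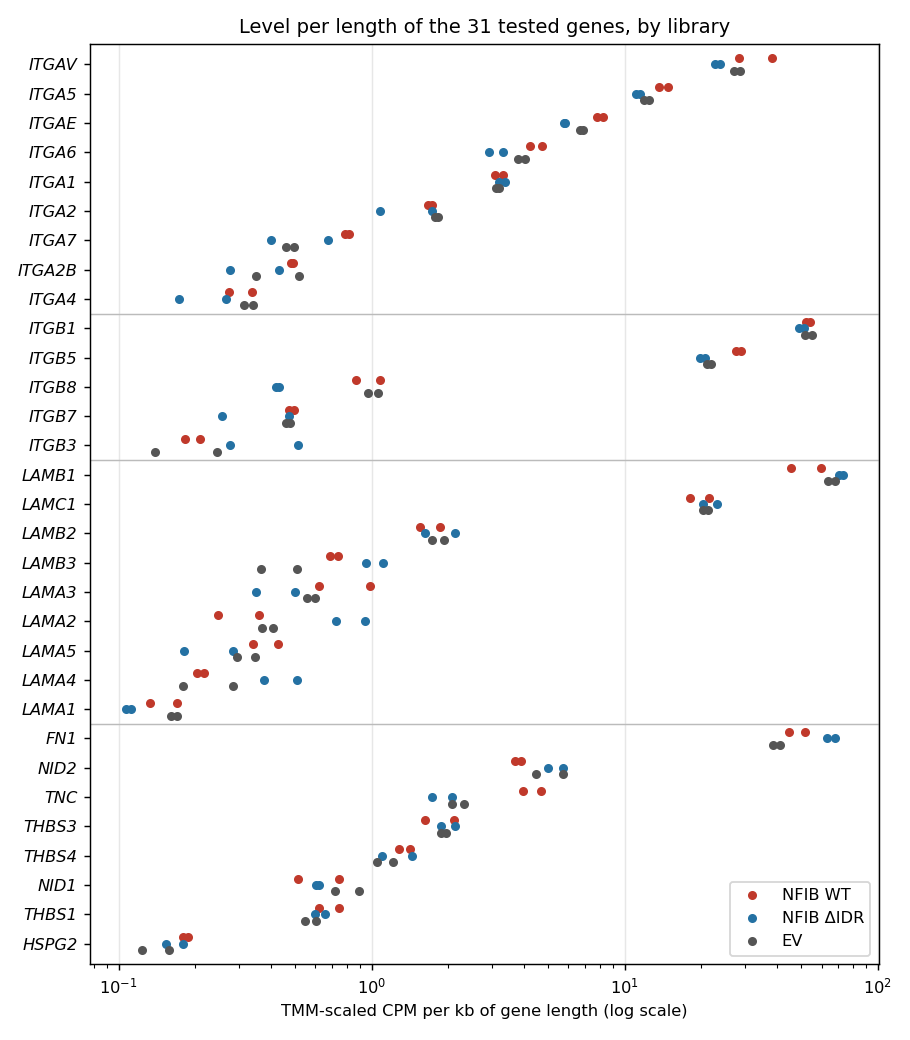
Level per length of the 31 tested genes on a log axis (TMM-scaled CPM per kb of gene length), with 1 point per library for NFIB WT, NFIB ΔIDR and EV cells, and lines between alpha subunits, beta subunits, laminin chains and other glycoproteins. ITGB1, ITGAV, ITGA5, ITGB5, LAMB1, LAMC1 and FN1 lie above 10 CPM per kb in every library, and the laminin alpha chains lie below 1.

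NFI proteins bind as dimers to TTGGC and GCCAA with 5 bases between them, and more weakly to a half-site, TTGGC or, on the other strand, GCCAA. The study gives the NFIB half-site as TGGCA, other letters than those searched here, and TGGCA was not searched. Promoter windows of 300 bases (250 before and 50 after the start given in the table) were read from the hg19 genome. Stretches upstream of the annotated gene start are shown for FN1, called higher with NFIB ΔIDR against EV, and for TNC, called higher with NFIB WT against EV. LAMA2 is also shown, as its absolute direct log2 fold change was the largest of the members. The stretches run 5′ to 3′ on the gene's strand, with half-sites in capitals.
FN1: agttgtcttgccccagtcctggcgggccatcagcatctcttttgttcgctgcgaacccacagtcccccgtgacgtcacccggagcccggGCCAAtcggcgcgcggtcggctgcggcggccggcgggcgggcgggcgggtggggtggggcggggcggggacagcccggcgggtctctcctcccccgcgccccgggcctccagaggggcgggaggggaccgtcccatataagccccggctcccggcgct
TNC: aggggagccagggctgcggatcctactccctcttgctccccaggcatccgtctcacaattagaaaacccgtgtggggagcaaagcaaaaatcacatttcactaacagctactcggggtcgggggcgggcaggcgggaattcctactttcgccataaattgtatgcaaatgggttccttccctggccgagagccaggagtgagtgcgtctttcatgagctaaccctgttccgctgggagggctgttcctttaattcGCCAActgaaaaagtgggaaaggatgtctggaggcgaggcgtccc
LAMA2: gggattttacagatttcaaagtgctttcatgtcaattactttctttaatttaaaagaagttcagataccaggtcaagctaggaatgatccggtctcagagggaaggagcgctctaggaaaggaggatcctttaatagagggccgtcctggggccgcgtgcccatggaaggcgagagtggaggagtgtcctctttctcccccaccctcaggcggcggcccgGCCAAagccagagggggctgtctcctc
The FN1 stretch is chr2:216300797-216301043 (minus strand), the TNC stretch chr9:117880487-117880786 (minus strand) and the LAMA2 stretch chr6:129204036-129204282 (plus strand). Each printed stretch held 1 half-site and no full site. The LAMA2 window held another half-site past its printed stretch, at base 34 after the start. The FN1 half-site, 161 bases before the start, lies inside GCCAAT, the letters of a CCAAT box, which other factors bind. The half-site is common, since it was in 9002 of 19298 promoter windows (46.6%), in 19 of the 51 member windows (37.3%) and in 12 of the 32 windows of tested members (37.5%). A full site was in 8 of all windows (0.04%) and in 0 member windows. Half-sites inside the letters of a CCAAT box were in 16.1% of all windows and 7.8% of member windows. A match of letters is a description and says nothing of binding, and enhancers were outside these windows.

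The 3 comparisons share libraries. The error behind each p-value was estimated from the spread between the 2 libraries within all 3 groups. The spread of the group left out of a comparison therefore also enters its p-value. A fit without 1 library leaves its group with 1 library and no spread. Its p-value thus does not measure the variation between libraries of that group. Without the filter on low counts, p-values could be far smaller at a near-equal SE. For FN1 with NFIB ΔIDR against EV, edgeR's quasi-likelihood test gave unadjusted p = 5.0e-15 (SE 0.0897) without the filter and 1.0e-05 (SE 0.0921) with it. Members were called at an adjusted p under 0.05 in edgeR's quasi-likelihood test over 13501 genes. With NFIB WT against EV, 1 of 32 tested members was higher (TNC) and 0 were lower, against 0.452% and 0.163% of all genes tested. At an unadjusted p under 0.05, 6 members were higher and 2 lower, beside 936 and 867 of all 13501 genes, and DESeq2 called 1 and 0 members. With NFIB ΔIDR against EV, 1 was higher (FN1) and 1 lower (ITGB8), against 0.296% and 0.356% of all genes. Between NFIB WT and NFIB ΔIDR directly, 6 were higher (ITGA6, ITGAV, ITGAE, ITGB5, ITGB8 and TNC) and 3 lower (FN1, LAMA2 and LAMB1), or 28.1% of the tested members. The same direct test called 5.52% of all genes higher and 5.19% lower. The study's threshold was a fold of 1.5 and an unadjusted p under 0.05. Under it the direct calls of ITGA6, ITGAV, ITGAE, ITGB5, FN1 and LAMB1 were lost in both edgeR and DESeq2, since their folds were smaller.

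**Figure D2:**
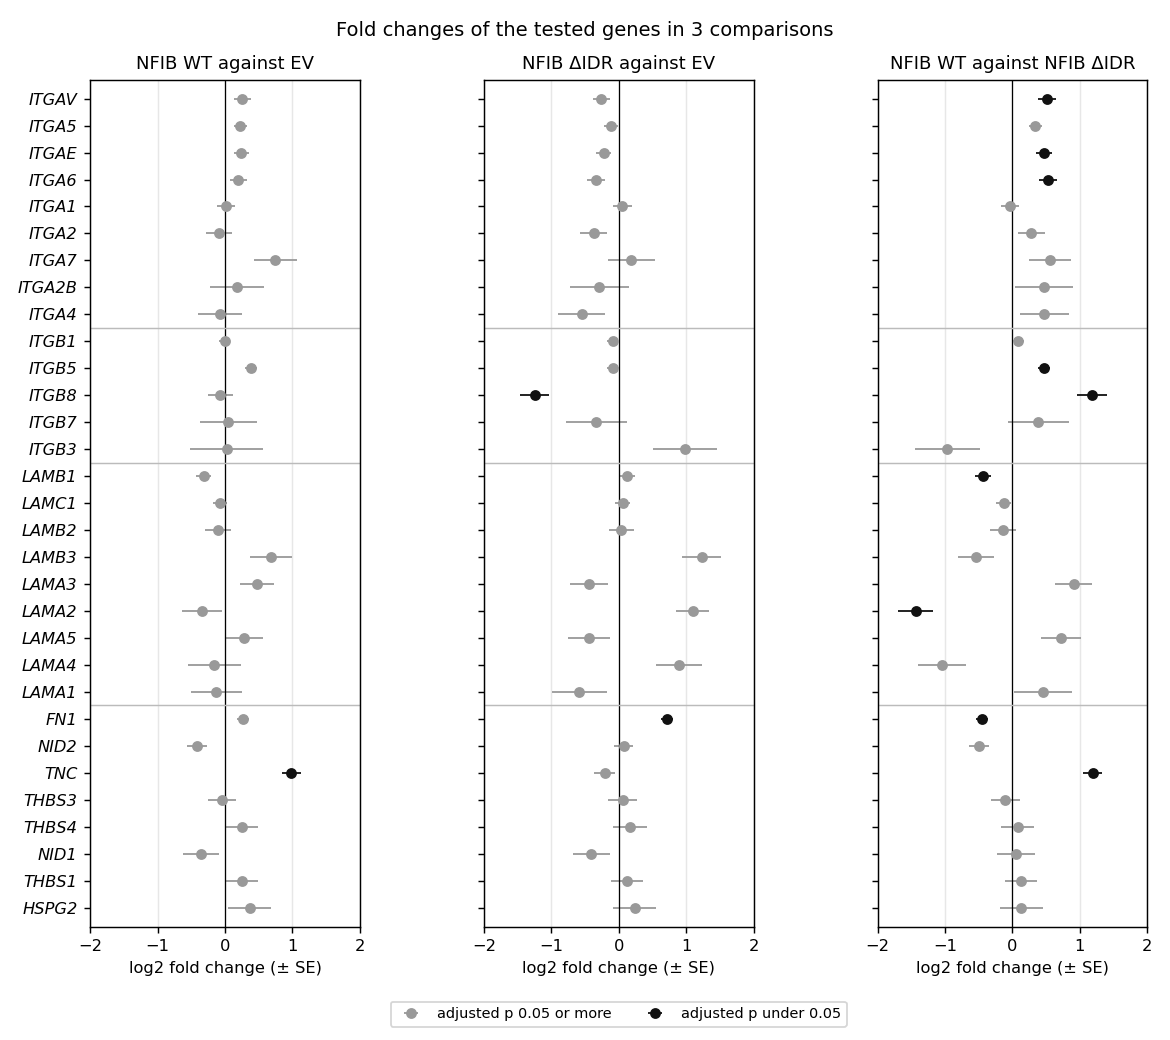
Log2 fold changes (± SE) of the 31 tested genes in the 3 comparisons, in black where the adjusted p was under 0.05 and in grey elsewhere, with lines between alpha subunits, beta subunits, laminin chains and other glycoproteins. Black points stand at TNC in the panel of NFIB WT against EV, at FN1 and ITGB8 in the panel of NFIB ΔIDR against EV, and at 9 genes in the direct comparison.

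TNC, a matrix glycoprotein of embryonic mesenchyme and of wounds that modulates adhesion to fibronectin, had its highest level in NFIB WT cells. It had 34.2 and 40.3 CPM in NFIB WT cells and 14.9 and 17.9 CPM in NFIB ΔIDR cells, against 19.9 and 17.9 CPM in EV cells. Both NFIB WT libraries stood above the other 4, and the nearest libraries of NFIB ΔIDR and EV cells were both at 17.9 CPM. TNC was 1.98-fold higher in NFIB WT than in EV cells (log2 fold change 0.98 ± 0.14 (SE), adjusted p = 0.0129) and 2.29-fold higher than in NFIB ΔIDR cells (1.19 ± 0.14, adjusted p = 0.00122). With NFIB ΔIDR against EV the log2 fold change was -0.21 ± 0.15 (adjusted p = 0.575). The direct log2 fold change was 1.06 to 1.33 when 1 library was left out. The call against EV was lost in a fit of the 2 groups alone (adjusted p = 0.0776), without NFIB ΔIDR replicate 1 (0.0621) or 2 (0.062) and without EV replicate 1 (0.139) or 2 (0.278). Its gene lies at chr9:117781854-117880486 (minus strand, hg19), and its exons share 129 bases with the antisense transcript DELEC1.

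Fibroblast markers were measured beside TNC, since fibroblasts are a main source of it in tissue. The summed level of the 10 markers was 584 to 597 CPM in NFIB WT cells and 406 to 414 CPM in NFIB ΔIDR cells, against 439 to 454 CPM in EV cells. FAP and DCN were called higher with NFIB WT against EV and 0 of 10 lower. In the direct comparison FAP, COL3A1, COL1A2, LUM and DCN were higher and PDGFRA and COL1A1 lower. In a bulk measurement, fewer cells of a type and less RNA per cell cannot be told apart, and the part of these marker levels in the TNC result was not tested.

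FN1, the main soluble and matrix ligand of ITGA5 with ITGB1, had its highest level in NFIB ΔIDR cells. Its level was 400 and 463 CPM in NFIB WT cells and 568 and 609 CPM in NFIB ΔIDR cells, against 347 and 371 CPM in EV cells. The 3 groups did not overlap. FN1 was 1.64-fold higher in NFIB ΔIDR than in EV cells (log2 fold change 0.71 ± 0.09, adjusted p = 0.0105), and 0.73 times as high in NFIB WT as in NFIB ΔIDR cells (-0.45 ± 0.09, adjusted p = 0.0135). For NFIB WT against EV the log2 fold change was 0.27 ± 0.09 and missed the threshold (adjusted p = 0.254). That value was 0.37 without NFIB WT replicate 1 and 0.16 without NFIB WT replicate 2. The call against EV was lost without NFIB ΔIDR replicate 1 (adjusted p = 0.239) or 2 (0.303) or EV replicate 1 (0.245) or 2 (0.2), and the direct call without NFIB ΔIDR replicate 1 (0.112) or 2 (0.187). FN1 lies at chr2:216225163-216300796 (minus strand, hg19).

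Epithelial markers also had their highest sum in NFIB ΔIDR cells, at 303 to 348 CPM, against 188 to 266 CPM in NFIB WT and 214 to 249 CPM in EV cells. Most of it was KRT18, at 274 and 321 CPM in NFIB ΔIDR cells. By edgeR, KRT18 was not called with NFIB ΔIDR against EV (adjusted p = 0.185) or in the direct comparison (0.0689). ESRP1 was called higher with NFIB ΔIDR against EV by edgeR, though not by DESeq2. ESRP1 and KRT8 were lower with NFIB WT against NFIB ΔIDR. EPCAM was at 5.46 to 8.48 CPM over all libraries and was not called, and CDH1 and KRT14 were at 0 to 0.44 CPM. The part of these levels in the FN1 result was not tested.

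**Figure D3:**
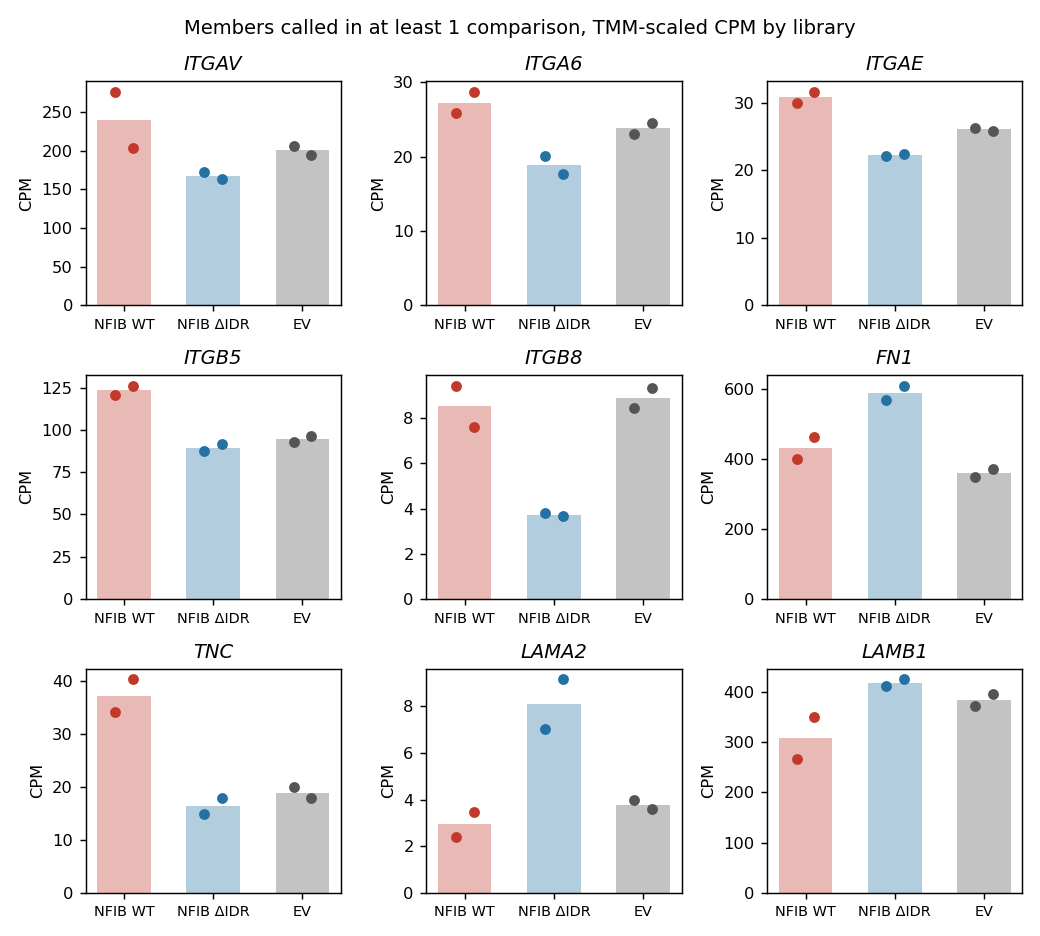
TMM-scaled CPM of the 9 members called in at least 1 comparison, with points for the 2 libraries of a group and bars for their mean, on axes that start at 0. NFIB WT libraries are the highest for TNC, ITGB5, ITGA6 and ITGAE, and NFIB ΔIDR libraries are the highest for FN1, LAMA2 and LAMB1. NFIB ΔIDR libraries are the lowest for ITGB8, ITGA6, ITGAE, ITGAV and ITGB5 and, by a narrow margin, for TNC.

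Among the receptors, ITGB8 was lower with NFIB ΔIDR than in both other groups. ITGB8 pairs with ITGAV, and that receptor is known for activating latent TGF-beta. It had 9.45 and 7.60 CPM in NFIB WT cells (63 and 59 counts) and 3.79 and 3.69 CPM in NFIB ΔIDR cells (28 and 25 counts), against 8.46 and 9.32 CPM in EV cells (62 and 78 counts). The NFIB ΔIDR libraries lay below the other 4, and NFIB WT and EV cells overlapped. ITGB8 was 0.42 times as high in NFIB ΔIDR as in EV cells (log2 fold change -1.25 ± 0.22, adjusted p = 0.0318) and 2.26-fold higher in NFIB WT than in NFIB ΔIDR cells (1.18 ± 0.22, adjusted p = 0.00925). NFIB WT against EV gave -0.07 ± 0.18 (adjusted p = 0.893). DESeq2 did not call ITGB8 with NFIB ΔIDR against EV (adjusted p = 0.086). That call was also lost without NFIB ΔIDR replicate 1 (0.326) or 2 (0.391) or EV replicate 1 (0.245) or 2 (0.368), and the direct call without NFIB ΔIDR replicate 1 (0.0984) or 2 (0.103). The gene is at chr7:20370325-20455377 (plus strand, hg19), and 132 of its exonic bases are shared with the antisense transcript ITGB8-AS1.

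ITGB5, which forms a vitronectin receptor with ITGAV, was higher in NFIB WT than in NFIB ΔIDR cells. Its libraries had 121 and 126 CPM in NFIB WT cells and 87.3 and 91.4 CPM in NFIB ΔIDR cells, against 93.0 and 96.2 CPM in EV cells. Both NFIB WT libraries lay above the other 4. The direct difference was 1.38-fold (log2 fold change 0.47 ± 0.09, adjusted p = 0.00988), and it lost its call without NFIB ΔIDR replicate 1 (0.148) or 2 (0.114). Against EV, NFIB WT gave 0.39 ± 0.09 (adjusted p = 0.0866, but 0.0469 with the replicate number as a block and 0.0303 under no filter on low counts). Over the alternative fits this value ranged from 0.36 to 0.42. NFIB ΔIDR against EV gave -0.08 ± 0.09 (adjusted p = 0.729). As a share of all beta subunit signal per kb, ITGB5 made 33.9% and 33.8% in NFIB WT cells and 28.3% and 28.3% in NFIB ΔIDR cells, against 28.4% and 27.8% in EV cells. ITGB1, at 212 and 222 CPM in NFIB WT cells, 200 and 209 CPM in NFIB ΔIDR cells and 211 and 224 CPM in EV cells, had log2 fold changes of -0.01 ± 0.08, -0.09 ± 0.08 and 0.08 ± 0.08 in the 3 comparisons (adjusted p at least 0.551). ITGB5 lies at chr3:124480795-124620265 (minus strand, hg19).

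ITGAV, the alpha subunit that both ITGB5 and ITGB8 need, was called higher in NFIB WT than in NFIB ΔIDR cells. It had 277 and 203 CPM in NFIB WT cells and 172 and 164 CPM in NFIB ΔIDR cells, against 206 and 195 CPM in EV cells. The NFIB WT libraries lay far apart and overlapped with EV cells, while both stood above NFIB ΔIDR cells. The direct log2 fold change was 0.51 ± 0.13 (adjusted p = 0.0293), and it was 0.28 without NFIB WT replicate 1 and 0.72 without NFIB WT replicate 2. The call was lost in a fit of the 2 groups alone (adjusted p = 0.0723), without NFIB ΔIDR replicate 1 (0.177) or 2 (0.247), and without EV replicate 1 (0.0679) or 2 (0.0678). Against EV the log2 fold changes were 0.26 ± 0.13 with NFIB WT (adjusted p = 0.408) and -0.26 ± 0.13 with NFIB ΔIDR (adjusted p = 0.378). The NFIB WT value was 0.02 without NFIB WT replicate 1 and 0.47 without NFIB WT replicate 2. The NFIB ΔIDR value passed the threshold in a fit of the 2 groups alone (adjusted p = 0.000895). It ranged from -0.30 to -0.22 over the alternative fits. The gene is at chr2:187454737-187545628 (plus strand, hg19), and 203 of its exonic bases are shared with an antisense transcript.

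ITGA6, a laminin receptor subunit, and ITGAE, which pairs with ITGB7 and binds E-cadherin on lymphocytes of mucosa, had the same order of groups as ITGAV. ITGA6 had 25.8 and 28.7 CPM in NFIB WT cells and 20.02 and 17.7 CPM in NFIB ΔIDR cells, against 23.1 and 24.5 CPM in EV cells. Its direct log2 fold change was 0.53 ± 0.13 (adjusted p = 0.0272). ITGAE had 30.0 and 31.7 CPM in NFIB WT cells and 22.2 and 22.4 CPM in NFIB ΔIDR cells, against 26.3 and 25.8 CPM in EV cells, with a direct log2 fold change of 0.47 ± 0.11 (adjusted p = 0.0273). For both genes the 3 groups did not overlap, and neither was called against EV with either construct (adjusted p at least 0.262). Neither was called by DESeq2 (adjusted p = 0.138 for ITGA6 and 0.172 for ITGAE) or in a fit of the 2 groups alone (0.0648 and 0.0684). ITGA6 lost its call without NFIB ΔIDR replicate 1 (0.127) or 2 (0.239) and EV replicate 1 (0.0612) or 2 (0.0608), and ITGAE without NFIB ΔIDR replicate 1 (0.189) or 2 (0.187) and EV replicate 1 (0.0657) or 2 (0.0655). CDH1, the E-cadherin that ITGAE binds, was at 0 to 0.44 CPM, and 427 exonic bases of ITGAE are shared with HASPIN on the opposite strand. ITGA6 shares 174, 125 and 52 exonic bases with antisense transcripts. ITGA6 is at chr2:173292082-173371187 (plus strand) and ITGAE at chr17:3617922-3704482 (minus strand, hg19).

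Taking the 14 tested subunits as a group, the direct comparison called 5 higher and 0 lower, beside 5.52% and 5.19% of all genes. At an unadjusted p under 0.05, 6 were higher and 0 lower, and DESeq2 called 3 higher and 0 lower. The subunits had a median log2 fold change of 0.47, against -0.0009 over all genes. Of the 14, 12 were above 0 in the direct comparison, 10 with NFIB WT against EV and 3 with NFIB ΔIDR against EV, beside 6736, 6861 and 6788 of 13501 genes. Against EV the medians were 0.11 with NFIB WT and -0.24 with NFIB ΔIDR. ITGB3 and ITGA1 were the 2 subunits below 0 in the direct comparison. ITGB3, a partner of ITGAV, had 0.90 and 1.03 CPM in NFIB WT cells and 1.35 and 2.51 CPM in NFIB ΔIDR cells, against 0.68 and 1.19 CPM in EV cells, from 5 to 17 counts per library. It was not called (direct log2 fold change -0.97 ± 0.48, adjusted p = 0.222). ITGA5, the fibronectin receptor subunit, had 58.3 and 63.1 CPM in NFIB WT cells and 48.8 and 47.2 CPM in NFIB ΔIDR cells, against 50.8 and 52.9 CPM in EV cells, and missed the threshold in the direct comparison (0.34 ± 0.10, adjusted p = 0.0551). ITGA7, a laminin receptor subunit of muscle, had 3.60 and 3.48 CPM in NFIB WT cells and 2.98 and 1.77 CPM in NFIB ΔIDR cells, against 2.18 and 2.03 CPM in EV cells, with no call (NFIB WT against EV 0.74 ± 0.32, adjusted p = 0.347). The other subunits, ITGA1, ITGA2, ITGA4, ITGA2B and ITGB7, had group means of 1.05 to 15.7 CPM and no call.

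Laminin chains gave 2 calls, both lower in NFIB WT than in NFIB ΔIDR cells. LAMA2, the alpha chain of muscle and Schwann cell basement membranes, had 2.4 and 3.48 CPM in NFIB WT cells (16 and 27 counts) and 7.04 and 9.15 CPM in NFIB ΔIDR cells (52 and 62 counts), against 3.96 and 3.58 CPM in EV cells (29 and 30 counts). Both NFIB ΔIDR libraries stood above the other 4. Its direct log2 fold change was -1.43 ± 0.26 (adjusted p = 0.00792), lost without NFIB ΔIDR replicate 1 (0.0511) or 2 (0.108). Against EV it was 1.10 ± 0.25 with NFIB ΔIDR (adjusted p = 0.0764, but 0.0428 with the replicate block, 0.0012 under no filter and 0.000221 in a fit of the 2 groups alone). With NFIB WT against EV it was -0.34 ± 0.30 (adjusted p = 0.643). LAMA2 is at chr6:129204283-129837711 (plus strand, hg19), and 642 of its exonic bases are shared with an antisense transcript.

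LAMB1, the beta chain of most early laminins, had 267 and 350 CPM in NFIB WT cells and 411 and 426 CPM in NFIB ΔIDR cells, against 372 and 397 CPM in EV cells. Both NFIB WT libraries were lower than the other 4, but they differed from each other more than NFIB ΔIDR differed from EV cells. The direct log2 fold change was -0.44 ± 0.12 (adjusted p = 0.036), with -0.25 without NFIB WT replicate 1 and -0.65 without NFIB WT replicate 2. It lost the call in a fit of the 2 groups alone (adjusted p = 0.0879), without NFIB ΔIDR replicate 1 (0.195) or 2 (0.262) and without EV replicate 1 (0.0854) or 2 (0.0856). Against EV it was -0.32 ± 0.12 with NFIB WT (adjusted p = 0.273) and 0.12 ± 0.11 with NFIB ΔIDR (adjusted p = 0.675). The NFIB WT value was -0.13 without NFIB WT replicate 1 and -0.52 without NFIB WT replicate 2. It passed the threshold under no filter on low counts (adjusted p = 0.031). The gene is at chr7:107564244-107643658 (minus strand, hg19), and 300 of its exonic bases are shared with DLD on the opposite strand. LAMC1, its usual gamma partner, had 143 and 170 CPM in NFIB WT cells and 161 and 183 CPM in NFIB ΔIDR cells, against 161 and 169 CPM in EV cells, and was not called.

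The remaining laminin chains were not called in any comparison in the fit of all 6 libraries with the filter and without a replicate block. Among them was LAMB2, a beta chain of synapses and kidney, with group means of 9.91 CPM in NFIB WT, 10.9 CPM in NFIB ΔIDR and 10.6 CPM in EV cells. LAMB3, an epithelial beta chain, had 3.30 and 3.09 CPM in NFIB WT cells and 5.01 and 4.28 CPM in NFIB ΔIDR cells, against 1.64 and 2.27 CPM in EV cells. The groups did not overlap, and its log2 fold change was 1.23 ± 0.29 with NFIB ΔIDR against EV (adjusted p = 0.0867, but 0.00248 in a fit of the 2 groups alone and 0.00764 under no filter). With NFIB WT against EV it was 0.69 ± 0.31 (adjusted p = 0.372). LAMA4, the chain of vessel walls, had 1.65 and 1.55 CPM in NFIB WT cells and 2.84 and 3.84 CPM in NFIB ΔIDR cells, against 1.36 and 2.15 CPM in EV cells (direct log2 fold change -1.05 ± 0.36, adjusted p = 0.0853, and 0.0429 under no filter). LAMA3, the chain of epithelial laminins, had 11.1 and 6.95 CPM in NFIB WT cells and 3.92 and 5.61 CPM in NFIB ΔIDR cells, against 6.69 and 6.21 CPM in EV cells (0.91 ± 0.27, adjusted p = 0.0573). Its direct value was 0.56 without NFIB WT replicate 1 and 1.23 without NFIB WT replicate 2. That comparison passed with the replicate block (adjusted p = 0.0408) and under no filter (0.00151). Against EV, NFIB WT gave 0.47 ± 0.25 (adjusted p = 0.436), with 0.11 without NFIB WT replicate 1 and 0.79 without NFIB WT replicate 2. LAMA5, the chain of mature basement membranes, had 3.90 and 4.89 CPM in NFIB WT cells and 3.25 and 2.07 CPM in NFIB ΔIDR cells, against 3.96 and 3.35 CPM in EV cells (0.72 ± 0.30, adjusted p = 0.152). LAMA1, the chain of embryonic basement membranes, had 1.65 and 1.29 CPM in NFIB WT cells and 1.08 and 1.03 CPM in NFIB ΔIDR cells, against 1.64 and 1.55 CPM in EV cells (0.45 ± 0.43, adjusted p = 0.555). The 5 alpha chains thus did not share a direction, with LAMA2 and LAMA4 below 0 and LAMA1, LAMA3 and LAMA5 above 0 in the direct comparison, where LAMA2 alone was called. Over the 9 tested chains the median log2 fold change was -0.14 in the direct comparison, -0.10 with NFIB WT against EV and 0.06 with NFIB ΔIDR against EV. Against EV, 0 chains were called with either construct (1 higher and 1 lower with NFIB WT and 3 higher and 0 lower with NFIB ΔIDR at an unadjusted p under 0.05, 0 by DESeq2).

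Of the other glycoproteins, 6 of the 8 tested were not called in any comparison. NID2, a nidogen that links laminin to collagen IV networks, came closest, at 19.7 and 18.7 CPM in NFIB WT cells and 25.2 and 28.8 CPM in NFIB ΔIDR cells, against 28.9 and 22.5 CPM in EV cells (direct log2 fold change -0.49 ± 0.15, adjusted p = 0.0622). THBS1, THBS3, THBS4, NID1 and HSPG2 had group means of 2.02 to 6.65 CPM. ITGB2-AS1 had group means of 5.22 CPM in NFIB WT, 7.66 CPM in NFIB ΔIDR and 5.22 CPM in EV cells and was not called, and its partner ITGB2 was too low to test. No source used here says whether the counting used strand, so reads of a gene and its antisense partner may not have been told apart.

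The rest of the adhesion pathway was described with 5 lists of other genes. Against EV, 0 of their tested genes were called by edgeR's quasi-likelihood test or by DESeq2 with either construct. At an unadjusted p under 0.05, NFIB WT against EV gave 2 higher and 1 lower of 27 cytoplasmic linkers, 0 and 2 of 21 kinases and switches, 8 and 4 of 31 other matrix glycoproteins, 6 and 1 of 17 other matrix receptors and 2 and 3 of 11 surface ligands, beside 936 and 867 of all 13501 genes. For NFIB ΔIDR against EV these were 1 and 1, 1 and 1, 4 and 7, 2 and 2, and 2 and 3 in the same order, beside 1049 and 1002 of all genes. In the direct comparison 0 linkers were higher and 1 lower (3.7% called), as were 1 and 2 kinases and switches (14.3%), 8 and 4 other matrix glycoproteins (38.7%), 6 and 1 receptors (41.2%) and 3 and 1 surface ligands (36.4%), beside 10.7% of all genes. DESeq2 called 0 and 1, 0 and 0, 4 and 0, 6 and 0, and 3 and 0 of them in the same order. The median log2 fold changes of the lists were -0.01, -0.07, 0.19, 0.33 and -0.01. ACTN1, the alpha-actinin that bundles actin at adhesions, was the linker that fell (-0.65 ± 0.14, adjusted p = 0.0172). PTK2B, a kinase related to focal adhesion kinase, and YES1, a SRC family kinase, were lower (-0.76 ± 0.18 and -0.32 ± 0.09), and CDC42, the GTPase of filopodia, was higher (0.31 ± 0.09), though DESeq2 called none of these 3.

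Higher matrix genes in the direct comparison included ELN, the elastic fibre protein, and NOV, a matricellular protein that binds integrins. ELN had 23.1 and 24.2 CPM in NFIB WT cells and 11.6 and 12.7 CPM in NFIB ΔIDR cells, against 17.7 and 18.5 CPM in EV cells (0.96 ± 0.13, adjusted p = 0.0026). NOV had 4.65 and 4.64 CPM in NFIB WT cells and 1.22 and 0.74 CPM in NFIB ΔIDR cells, against 1.77 and 1.91 CPM in EV cells (2.21 ± 0.34, adjusted p = 0.0038). EGFLAM, a dystroglycan ligand (0.67 ± 0.10), and FREM2, a basement membrane protein (0.87 ± 0.14), were also higher. Of the receptors, the tetraspanin CD81 (0.72 ± 0.11), the collagen receptor DDR2 (0.43 ± 0.08) and the sarcoglycan SGCE (0.65 ± 0.13) were higher. RPSA, listed here as a laminin receptor, was also higher (0.49 ± 0.09). Among surface ligands, ADAM15, whose disintegrin domain binds integrins, was higher (0.92 ± 0.15), as were ADAM9 (0.37 ± 0.08) and JAM3 (0.48 ± 0.09), and the sheddase ADAM17 was lower (-0.39 ± 0.09).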

How the data were processed

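The authors aligned CORALL total RNA reads (CASAVA 2.19) to hg19 with STAR 2.4.0h and deposited raw counts per RefSeq gene from featureCounts. No source used here says whether strand or molecular identifiers entered the counting. On these counts, edgeR 4.0.16 (R 4.3.3) was run with filterByExpr (at least 10 counts, total of at least 15), TMM factors and its quasi-likelihood test, with all 6 libraries in 1 fit, a mean per group and Benjamini-Hochberg adjustment over 13501 genes. The SE was the absolute log2 fold change divided by the square root of F. CPM per kb used the gene length in the table. The study names DESeq2 with a fold of 1.5, and DESeq2 1.42.0 was run as an alternative beside other scalings, filters, fits of 2 groups, a replicate block and leaving out each library. The steps were tested on simulated data. Values per library are given for FN1, TNC, called members, the highest alpha and beta subunit, and members of at least 1 CPM with an absolute log2 fold change of at least 0.58, and of the other lists up to 4 genes with the smallest adjusted p. ITGA5, NID2 and LAMC1 were named beside them after their values were seen. Members and lists were chosen with earlier results of these data known. Tenascin XB was not analysed here, and a member too low to test is not reported here by name. Gene spans and exon overlaps came from GENCODE lifted to GRCh37, since start and end in the table span only 2000 bases around each start site. Figures were drawn with matplotlib 3.10.9.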

Additional observations from a re-analysis of the deposited data

How the results depend on the processing

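With 2 libraries a group, the calls depended on the settings. Members higher with NFIB WT against EV numbered 1, with 2 under no filter on low counts, 3 with a fold of 1.5 and unadjusted p in edgeR, 0 in a fit of the 2 groups alone and 0 to 4 when 1 library was left out. Members higher with NFIB ΔIDR against EV numbered 1, with 3 under no filter, 4 with a fold of 1.5 and unadjusted p in edgeR and 3 in DESeq2, 3 in a fit of the 2 groups alone and 0 to 3 with a library left out. In the direct comparison, the 6 higher members became 3 with a fold of 1.5 and unadjusted p in DESeq2, 3 in a fit of the 2 groups alone and 1 to 8 with a library left out, and the 3 lower members 5 under no filter, 1 with a fold of 1.5 and unadjusted p in DESeq2 and 0 to 5 with a library left out. Lower members against EV numbered 0 with NFIB WT (1 under no filter, 0 to 1 with a library left out) and 1 with NFIB ΔIDR (0 by DESeq2, 2 in a fit of the 2 groups alone, 0 to 2 with a library left out). The replicate numbers were not shown to pair the libraries, since the deviations of same-numbered libraries correlated at 0.165, 0.061 and 0.019. With the replicate number as a block, 2 members were higher with each construct against EV, and 8 were higher and 4 lower in the direct comparison.

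Over all genes, leaving out a library gave 8 to 1518 higher with NFIB WT against EV (61 with all libraries), 2 to 892 with NFIB ΔIDR (40) and 67 to 2229 in the direct comparison (745). The numbers of lower genes were 1 to 1533 (22), 2 to 977 (48) and 42 to 2176 (701). DESeq2 gave 430 higher and 295 lower genes in the direct comparison, no filter on low counts 1164 and 1116, and a fit of the 2 groups alone 358 and 322. Against EV, first for NFIB WT and then for NFIB ΔIDR, higher and lower genes numbered 281 and 260 and 276 and 274 under no filter, 10 and 3 and 910 and 973 in a fit of the 2 groups alone, 126 and 62 and 120 and 121 with the replicate block, and 288 and 236 and 417 and 227 with a fold of 1.5 and unadjusted p in edgeR. In DESeq2 that threshold gave 146 and 105 and 180 and 121 against EV, and 439 higher in the direct comparison. The cause was not tested. The log2 fold changes that turned sign were uncalled, and did so when 1 library was left out. They ranged over the 6 left-out libraries from -0.25 to 0.50 for ITGA7 with NFIB ΔIDR against EV, and with NFIB WT against EV from -0.043 to 0.041 for ITGB1 (0.03 without NFIB WT replicate 1), from -0.29 to 0.50 for ITGB3 (-0.08 without NFIB WT replicate 2), from -0.23 to 0.088 for ITGB8 (0.01 without EV replicate 2), from -0.30 to 0.054 for LAMA1 and from -0.42 to 0.22 for LAMA4. Depth limits the low members: ITGB3 had 5 to 17 counts per library.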
